A study of Arabidopsis thaliana with 14 samples.

Results

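Dark-grown Arabidopsis seedlings at 3 levels of brassinosteroid supply are described here, from 6 of the 14 arrays of the series. The levels are the mutant det2, which the labels call deficient in brassinosteroid, wild-type Col with its own hormone, and wild-type Col treated with added hormone, written Col_BL below. All were whole seedlings 7 days old grown in darkness, with 2 arrays each. The other 8 arrays hold wild type moved to light for 2 h with (Col_BR) and without added hormone, det2 grown in light for 7 days, and det2 at 14 days kept in the dark for 8 h after light.

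Brassinosteroids are plant steroid hormones that drive cell elongation. They bind the membrane receptor kinase BRI1, which turns off the kinase BIN2 and lets the transcription factors BZR1 and BES1 act in the nucleus. DET2 is a steroid reductase of brassinosteroid synthesis, and brassinolide (BL) is the most active hormone of the family. In darkness a wild-type seedling elongates its hypocotyl and keeps its chloroplast programme low, whereas det2 stays short and opens its cotyledons as if in light.

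The hormone itself was not measured in these files, so the order det2, Col, Col_BL is an order of supply and not of measured content. The sample titles of the third level say BL and the descriptions say BR, and neither the dose nor the length of treatment was given in the sources used here. The labels name no allele of det2, no DET2 probe set is named here, and the lowest level therefore rests on its label alone. The lowest step is a change of genotype and the upper step a treatment of wild type. In whole seedlings a lower signal from fewer cells of a type and from less RNA per cell cannot be told apart. The labels do not say whether the 2 arrays of a level are 2 cultures, and the spread that the p-values rest on may be only technical.

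The lower step was far larger than the upper one. In det2 against Col 6598 of 17787 tested probe sets passed (limma, Benjamini-Hochberg adjusted p, 37.1% of all), 3412 higher (19.2%) and 3186 lower (17.9%) in det2. In Col_BL against Col 608 passed (3.42%), 272 higher (1.53%) and 336 lower (1.89%) in Col_BL. The 4 wild-type arrays correlated with each other at r = 0.931 to 0.970 across probe sets, and each det2 array correlated with them at r = 0.851 to 0.867. The highest signal was 45066 and 47533 on the det2 arrays and between 18539 and 21957 on the wild-type arrays. Genotype and any difference in how the arrays were made cannot be told apart. Leaving out array 1 of Col_BL lowered the count for Col_BL against Col to 184, and leaving out array 2 of Col lowered it to 287.

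Each change was taken on the scale log2(signal + 16), as det2 minus Col and as Col_BL minus Col. A probe set was put in a class where both changes passed. In 86 probe sets (0.483% of all tested) signal was lower in det2 and higher in Col_BL, an ordered rise with hormone supply. In 40 (0.225%) it was higher in det2 and lower in Col_BL, an ordered fall. In 51 (0.287%) it was higher at both ends than in Col, and in 182 (1.02%) lower at both ends. Both changes use the same Col arrays, so a Col value that is high or low by chance moves both the same way and adds to the classes at both ends. In every class member the 3 levels kept the class order with no overlap of Col with either end. Over all tested probe sets, passing or not, 1273 were fully ordered upward on the 6 arrays (7.16%) and 877 downward (4.93%), 1683 had both Col arrays lowest (9.46%) and 1579 had both highest (8.88%). Of the 336 probe sets lower with added hormone, 182 were also lower in det2, 40 were higher in det2 and 114 did not pass there. Of the 272 higher with added hormone, 51 were also higher in det2, 86 were lower in det2 and 135 did not pass there. Over all tested probe sets 19.2% were higher and 17.9% lower in det2. The 51 of 272 lie near the 19.2%, and the 40 of 336 under it. The 86 of 272 and the 182 of 336 lie above the 17.9%.

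**Figure D1:**
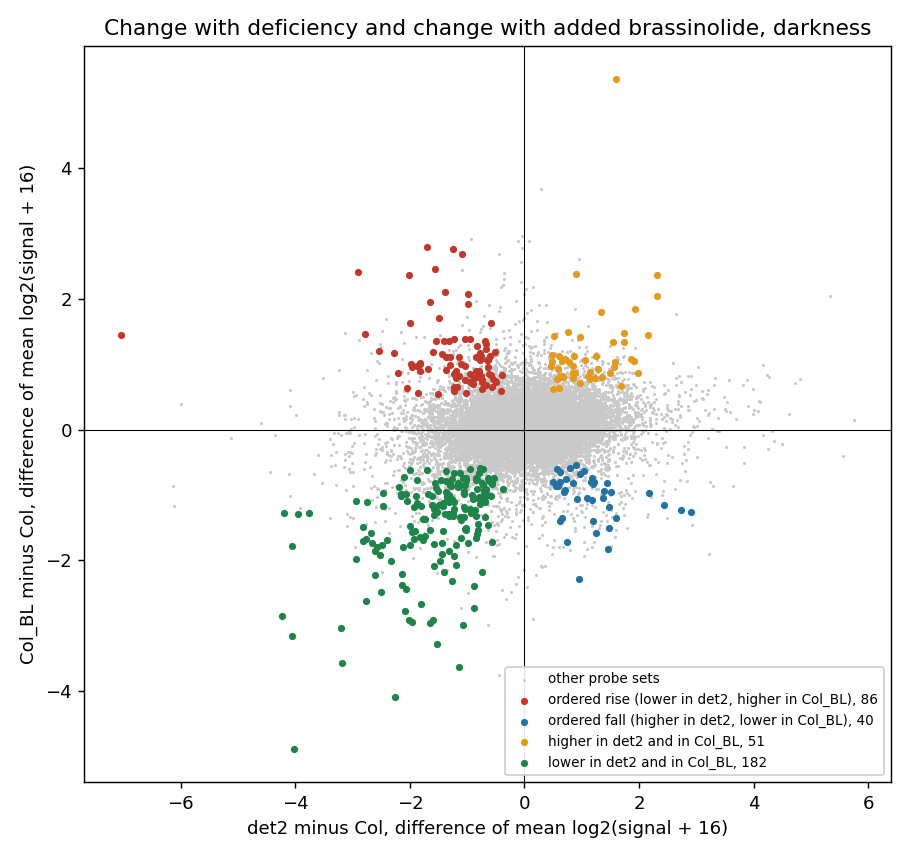
Each point is 1 of 17787 probe sets, with det2 minus Col across and Col_BL minus Col upward, both as differences of mean log2(signal + 16). The 86 ordered rises (red) lie upper left, the 40 ordered falls (blue) lower right, the 51 higher at both ends (orange) upper right and the 182 lower at both ends (green) lower left.

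The point farthest left and the highest point of that plot are probe sets without a named gene here, singled out after their values were seen. The one farthest left, an ordered rise, had signals of 8.4 and 3.2 on the det2 arrays, 3151 and 2556 on the Col arrays and 8368 and 7207 on the Col_BL arrays, so its det2 level lies under the constant of 16. The highest, in the class higher at both ends, had 132 and 132 on the det2 arrays, 51.6 and 18.999 on the Col arrays and 2593 and 1495 on the Col_BL arrays. The test threshold cuts through a continuous range. The ordered rise nearest to it was AT1G05700, with changes of -1.97 and 0.96 and an adjusted p of 0.0499 (limma) for the weaker of its changes. The nearest probe set outside, which has no named gene here, had changes of -0.98 and 0.73 and an adjusted p of 0.0516 (limma). Among the ordered falls the nearest probe sets inside and outside, both without a named gene, stood at 0.72 and -0.75 inside and at 0.39 and -0.61 outside. AT5G27220, just inside the class higher at both ends, had 0.85 and 0.87, and MAP1B, just outside, 1.60 and 1.01. AT1G06640, just inside the class lower at both ends, had -1.02 and -0.74, and the nearest probe set outside -1.15 and -1.07.

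The ordered rise was led by 2 genes known here only by locus. AT1G49570 had signals of 98.3 and 109 on the det2 arrays, 794 and 977 on the Col arrays and 4189 and 5393 on the Col_BL arrays. Each step was several-fold and no 2 levels overlapped. The log2 change was -2.91 ± 0.21 (SE) for det2 against Col (limma, adjusted p = 1.84e-06) and 2.41 ± 0.21 for Col_BL against Col (adjusted p = 6.24e-05). AT4G36430 had 256 and 216 on the det2 arrays, 857 and 1178 on the Col arrays and 6737 and 4049 on the Col_BL arrays, again with no overlap. It changed by -2.02 ± 0.27 in det2 and by 2.36 ± 0.27 in Col_BL (limma, adjusted p = 0.000112 and 0.000391). AT5G19890 had 85.8 and 145 on the det2 arrays, 338 and 469 on the Col arrays and 2013 and 4024 on the Col_BL arrays, and its upper step, 2.79 ± 0.46, was wider than its lower one, -1.70 ± 0.46.

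Among the 8 ordered rises that carry a gene name, read out after their values were seen, 4 encode enzymes that act on sugars or sugar conjugates. UGT72E1 (AT3G50740), a glucosyltransferase that acts on the lignin precursors coniferyl and sinapyl aldehyde, had 597 and 591 on the det2 arrays, 1511 and 1462 on the Col arrays and 3756 and 2767 on the Col_BL arrays. GH9B13 (AT4G02290), a glycosyl hydrolase of family 9, which holds the plant endoglucanases, had 722 and 804 on the det2 arrays, 3013 and 2499.6 on the Col arrays and 5606 and 5396 on the Col_BL arrays. BGLU25 (AT3G03640), a beta-glucosidase, had 347 and 362 on the det2 arrays, 797 and 1106 on the Col arrays and 2508 and 1662 on the Col_BL arrays. In these 3 genes all 6 arrays were ordered by level. APL3 (AT4G39210), a large subunit of ADP-glucose pyrophosphorylase in starch synthesis, had 205 and 193 on the det2 arrays, 366 and 364 on the Col arrays and 1129 and 724 on the Col_BL arrays. Its Col arrays lay close together, and its Col_BL arrays were the highest.

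The other 4 named rises have roles in proteolysis, methionine metabolism and oxidative reactions. SBTI1.1 (AT1G01900), a subtilisin-like protease, had 193 and 218 on the det2 arrays, 394 and 452 on the Col arrays and 1507 and 1794 on the Col_BL arrays. Added hormone raised it by 1.92 ± 0.22 on the log2 scale (limma, adjusted p = 0.000474), and deficiency lowered it by a smaller amount, -0.99 ± 0.22 (adjusted p = 0.0041). Prx37 (AT4G08770), a class III peroxidase of the cell wall, had 136 and 179.8 on the det2 arrays, 237 and 279 on the Col arrays and 767 and 509.96 on the Col_BL arrays. The homocysteine methyltransferase gene HMT-1 (AT3G25900) changed by -1.20 ± 0.21 in det2 and 0.90 ± 0.21 in Col_BL. GSTU27 (AT3G43800), a glutathione S-transferase, changed by -0.74 ± 0.15 and 0.62 ± 0.15 and was the mildest of the 8 in Col_BL.

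Among the remaining loci named by size, AT1G53690 had 26.4 and 39.4 on the det2 arrays, 63.5 and 149 on the Col arrays and 651 and 893 on the Col_BL arrays, the widest upper step of this group, 2.76 ± 0.35. AT3G46270 had 25.7 and 58.5 in det2, 153 and 139.8 in Col and 369 and 435 in Col_BL, AT1G43910 had 53.995 and 43.996 in det2, 161 and 151 in Col and 503 and 353 in Col_BL, and AT2G47010 had 32.2 and 22.4 in det2, 101 and 129 in Col and 357 and 219 in Col_BL. AT3G51410 had 124 and 105 in det2, 278 and 296 in Col and 668 and 899 in Col_BL. In all of these the 6 arrays were ordered without overlap, as they were in every member of the class. AT1G53080 had 5.8 and 6.8 in det2, 64.3 and 33.5 in Col and 163 and 221 in Col_BL, so its det2 level is under the constant of 16 and the lower step has no reliable size. AT4G12500 had 9.5 and 44.2 in det2, 86.994 and 84.8 in Col and 604 and 296 in Col_BL, with 1 of its det2 arrays under that constant.

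Over the 86 members the median change was -1.10 in det2 and 0.9997 in Col_BL, against 0.08 and 0.05 over all tested probe sets. Both steps were at least 2-fold in 27, the upper step was the larger in 41 and the lower in 45. Of the 86, 45 belong to 1 gene, 2 to several and 39 have no gene name here. The class is thin in replication. Its count was 50 and 54 without array 1 or 2 of det2, 33 and 28 without array 1 or 2 of Col, and 22 and 44 without array 1 or 2 of Col_BL. In 7 probe sets, AT1G49570, AT4G36430, UGT72E1 and SBTI1.1 among them, the call held with each of the 6 arrays left out. AT1G53080, AT3G46270 and AT3G51410 left the class without any 1 of the 4 wild-type arrays, and HMT-1 and GSTU27 without any 1 of the 6 arrays. AT5G19890 and AT1G53690 left without array 1 of det2 or array 2 of Col, AT1G43910 without array 2 of Col or array 1 of Col_BL, and AT2G47010 without either Col array or array 1 of Col_BL. GH9B13 left without array 2 of Col or either Col_BL array. AT4G12500 and Prx37 left without array 1 of det2, either Col array or array 1 of Col_BL, BGLU25 without either det2 array, array 1 of Col or array 1 of Col_BL, and APL3 without any 1 array but array 2 of Col_BL.

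**Figure D2:**
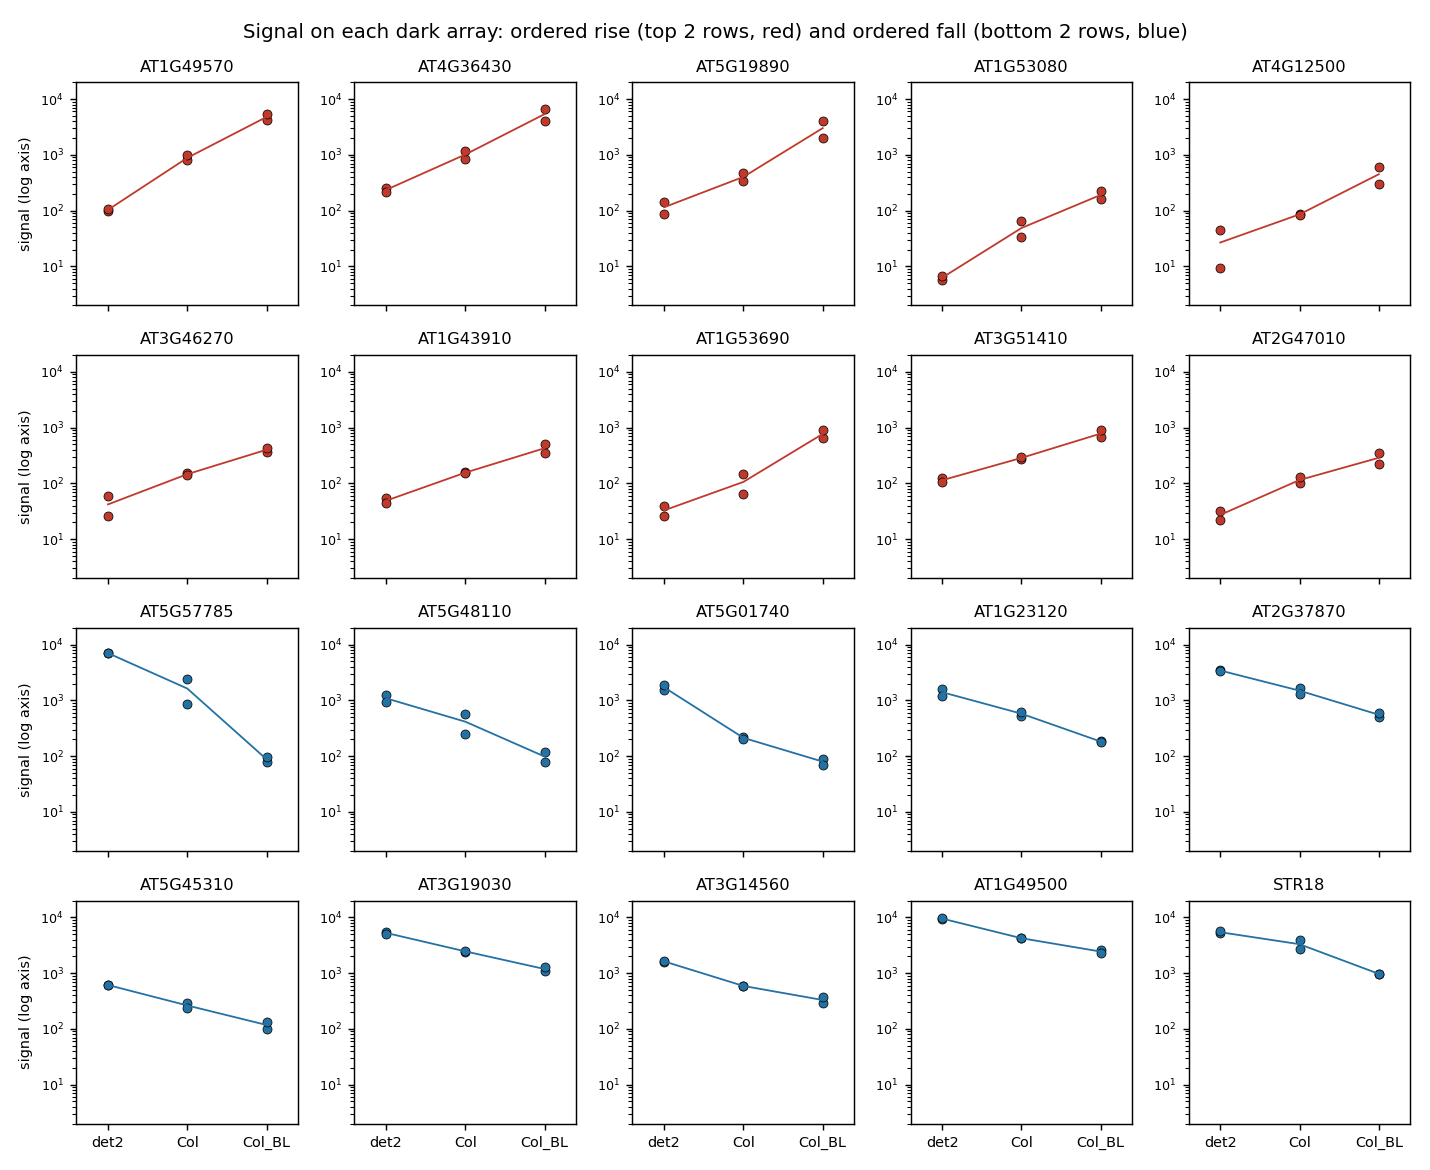
Signal on each of the 6 dark arrays (log axis) for the 10 ordered rises (red) and 10 ordered falls (blue) with 1 gene and the largest weaker change, from det2 through Col to Col_BL. Points are arrays and lines join level means. AT1G49570 climbs at both steps, whereas AT5G57785 drops most at the upper step.

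The ordered fall was led by AT5G57785, a locus without a name here. Its signals were 6982 and 7086 on the det2 arrays, 853 and 2409 on the Col arrays and 78.2 and 97.6 on the Col_BL arrays. The det2 arrays lay close together, the Col arrays were well apart, and the Col_BL arrays were far below both. The change was 2.28 ± 0.39 in det2 (limma, adjusted p = 0.000685) and -3.81 ± 0.39 in Col_BL (adjusted p = 0.000178). AT5G01740 had the reverse balance, with 1512 and 1913 on the det2 arrays, 222 and 204 on the Col arrays and 89.1 and 70.7 on the Col_BL arrays. Its lower step of 2.91 ± 0.24 was wider than its upper step of -1.26 ± 0.24 on the log2 scale.

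Several loci fell at both steps. AT3G19030 had 5525 and 5013 on the det2 arrays, 2393 and 2519.5 on the Col arrays and 1092 and 1280.01 on the Col_BL arrays, with changes of 1.09 ± 0.16 and -1.04 ± 0.16 (limma, adjusted p = 0.000262 and 0.00372). AT2G37870 had 3561 and 3306 in det2, 1679.7 and 1311 in Col and 505 and 601 in Col_BL. AT1G49500 had 9399.6 and 9609 in det2, 4236 and 4217 in Col and 2595 and 2278 in Col_BL. No levels overlapped in these 3 genes. AT1G23120 had 1629 and 1177 in det2, 531 and 624 in Col and 189 and 177 in Col_BL, AT5G48110 had 1247 and 934 in det2, 580.2 and 249.9 in Col and 118 and 79.1 in Col_BL, and AT5G45310 had 607 and 618 in det2, 289.9 and 237 in Col and 102 and 134 in Col_BL. AT3G14560 had 1569 and 1680.5 in det2, 584 and 595 in Col and 288 and 372 in Col_BL, with a milder upper step of -0.82 ± 0.20. STR18 (AT5G66170), a sulfurtransferase and the one ordered fall with a gene name, had 5162 and 5679 on the det2 arrays, 2668 and 3937 on the Col arrays and 983 and 961 on the Col_BL arrays. Most of its fall lay in the upper step, -1.72 ± 0.21 (limma, adjusted p = 0.000649), against 0.74 ± 0.21 in det2 (adjusted p = 0.0139).

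Over the 40 members the median change was 1.13 in det2 and -0.96 in Col_BL, and 13 changed at least 2-fold at both steps. The upper step was the larger in 19 and the lower in 21. The count was 24 and 23 without array 1 or 2 of det2, 23 and 18 without array 1 or 2 of Col, and 24 and 32 without array 1 or 2 of Col_BL. AT5G57785, AT1G23120, AT2G37870 and AT3G19030 are among the 6 probe sets whose call held with each of the 6 arrays left out. AT1G49500 left the class without array 2 of Col_BL, STR18 without array 2 of det2 or array 1 of Col, and AT5G45310 without array 1 of Col or of Col_BL. AT5G48110 left without either Col array or array 2 of Col_BL, AT5G01740 without any 1 wild-type array, and AT3G14560 without any 1 array but array 2 of Col_BL. The 7 seed maturation and storage genes tested, such as those of embryo proteins, were also highest in det2 when summed. Their signals summed to 17208 and 16907 on the det2 arrays, 3931 and 9994 on the Col arrays and 2532 and 5133 on the Col_BL arrays. Of the 7, 2 were higher in det2 than in Col (19.2% of all probe sets were). In Col_BL against Col 0 passed (limma, 2 at an unadjusted p under 0.05), and none of the 7 is in the class. Their part in the ordered fall was not tested.

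The largest of the 4 classes held genes that were highest at the normal level and lower with either too little or added hormone. AT2G16005 had signals of 196 and 188 on the det2 arrays, 3710.2 and 3061 on the Col arrays and 109 and 89.9 on the Col_BL arrays. Both ends lay far below Col. The change was -4.02 ± 0.21 in det2 (limma, adjusted p = 1.25e-07) and -4.88 ± 0.21 in Col_BL (adjusted p = 9.58e-08). AT4G37220 had 1147 and 984 on the det2 arrays, 6578 and 4064 on the Col arrays and 377 and 224 on the Col_BL arrays, so its low values differed between the ends, with Col_BL below det2. AT1G31710 had 496 and 368 on the det2 arrays, 2266 and 1667 on the Col arrays and 449 and 369 on the Col_BL arrays, nearly level at the ends, and its other probe set was in the class too.

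Sugar transporters of the SWEET family, which carry sugars across membranes down a gradient, supplied 3 members. SWEET3 (AT5G53190) had 252 and 219 on the det2 arrays, 641 and 663 on the Col arrays and 141 and 122 on the Col_BL arrays. SWEET2 (AT3G14770), which sits in the vacuole membrane of roots, had 217 and 267 on the det2 arrays, 467 and 403 on the Col arrays and 164 and 118 on the Col_BL arrays. SWEET16 (AT3G16690), a vacuolar transporter of fructose and other sugars, had 556 and 569 on the det2 arrays, 899 and 1108 on the Col arrays and 359.8 and 353 on the Col_BL arrays. In all 3 the Col arrays were the highest, no level overlapped another and the Col_BL arrays were the lowest. The changes in Col_BL were -2.18 ± 0.36, -1.53 ± 0.20 and -1.45 ± 0.16 (limma, adjusted p = 0.00543, 0.0011 and 0.00034), and in det2 -1.41 ± 0.36, -0.81 ± 0.20 and -0.81 ± 0.16 (adjusted p = 0.00846, 0.0067 and 0.00178).

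A few named members belong to the cell wall or to the endoplasmic reticulum (ER) bodies, the beta-glucosidase stores of Brassicaceae. PME61 (AT3G59010), a pectin methylesterase, had 123 and 147 on the det2 arrays, 359 and 327 on the Col arrays and 151 and 116 on the Col_BL arrays. NAI2 (AT3G15950), which is needed to form ER bodies, had 3094 and 3296 on the det2 arrays, 6169 and 4995 on the Col arrays and 3818 and 3195 on the Col_BL arrays, and the jacalin-related lectin JAL34 (AT3G16460), of the family that binds the ER body beta-glucosidase PYK10, had 8898 and 8074 on the det2 arrays, 11439 and 10563 on the Col arrays and 6157 and 5587 on the Col_BL arrays. In all 3 genes both Col arrays lay above all 4 others. PYK10 itself was not in the class: its signals were 20390.5 and 23216 on the det2 arrays, 12932 and 14144 on the Col arrays and 11299 and 11056 on the Col_BL arrays, and its det2 against Col difference of 0.69 ± 0.12 turned to -0.31 under quantile normalization. MSRB9 (AT4G21850), a methionine sulfoxide reductase, had 1047 and 977 in det2, 4011 and 4492 in Col and 1863 and 2130.2 in Col_BL, and ZCF37 (AT1G59590) had 336 and 292 in det2, 1212 and 1062 in Col and 445 and 557 in Col_BL. For both of these det2 was below Col_BL.

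Among the other named members, the subtilase gene ATSBT5.2 (AT1G20160) had 1242 and 1382 in det2, 2677 and 1969 in Col and 951 and 1253 in Col_BL. The lectin gene EULS3 (AT2G39050) had 353 and 427 in det2, 743 and 876 in Col and 422 and 514 in Col_BL. UGT85A2 (AT1G22360), a glucosyltransferase, had 973 and 1085 in det2, 1429 and 1627 in Col and 863 and 848 in Col_BL. In all 3 both ends lay below both Col arrays. The glutathione transferase GSTU28 (AT1G53680) changed by -0.98 ± 0.30 and -1.73 ± 0.30, HOS3-1 (AT4G36830) by -1.52 ± 0.31 and -1.26 ± 0.31, SGP1 (AT5G54840) by -0.83 ± 0.18 and -0.76 ± 0.18, and the glycosyltransferase-like AT3G52060 by -0.71 ± 0.24 and -0.99 ± 0.24 in det2 and in Col_BL. Of the loci known only by number, AT5G54370 had 226 and 145 in det2, 1410.2 and 871 in Col and 134 and 255 in Col_BL. AT1G52060 had 196 and 176 in det2, 942 and 801 in Col and 112 and 210.3 in Col_BL, and AT1G66800 had 182 and 92.7 in det2, 432 and 568 in Col and 49.997 and 81.9 in Col_BL. AT4G17470, AT4G25250 and AT1G73340 were close to the bottom of the scale in det2, with 5.1 and 15.999, 10.2 and 80.7 and 12.9 and 13.2, and their Col signals were 333 and 516, 433 and 246 and 125 and 182.

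Over the 182 members the median change was -1.32 in det2 and -1.22 in Col_BL, and 99 were at least 2-fold lower at both ends. The ends often lay near each other, since in 104 members Col_BL and det2 differed by no more than 0.5 on the log2 scale. Where Col_BL and det2 differed past the threshold, 38 were higher in Col_BL (19.1% of all probe sets were) and 22 higher in det2 (18.9%). These counts are not read as a result about the class. The count was 134 and 133 without array 1 or 2 of det2, 136 and 88 without array 1 or 2 of Col, and 63 and 134 without array 1 or 2 of Col_BL. In 41 members the call held with each array left out, AT2G16005, AT4G17470, AT5G54370, AT4G37220, the probe set of AT1G31710 given above, AT1G66800, PME61 and SWEET16 among them. The other probe set of AT1G31710 left the class without array 1 of Col or either Col_BL array. EULS3, UGT85A2 and AT3G52060 left the class without any 1 of the 6 arrays, AT4G25250 and HOS3-1 without any 1 wild-type array, and AT1G73340 without any 1 array but array 2 of Col_BL. AT1G52060, ZCF37 and ATSBT5.2 left without array 1 of Col_BL, MSRB9 without that array or array 2 of Col, SWEET3 and GSTU28 without array 2 of det2, GSTU28 also without array 2 of Col, and SWEET2 without array 1 of det2. NAI2 left without array 1 of Col or array 2 of Col_BL, SGP1 without array 2 of Col or either Col_BL array, and JAL34 without any 1 array of det2 or Col.

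Both root hair markers tested read highest in Col as well. The root hair expansins EXPA18 and EXPA7 read 169.7 and 60.6 on the det2 arrays, 238 and 561 on the Col arrays and 67.995 and 217 on the Col_BL arrays, and 22.998 and 81.8 on the det2 arrays, 140.3 and 234 on the Col arrays and 18.4 and 126 on the Col_BL arrays. EXPA18 was lower in det2 than in Col by -1.68 ± 0.51 on the log2 scale (limma, adjusted p = 0.0208), a call lost without array 2 of det2 or of Col. Its change in Col_BL was -1.45 ± 0.51 (adjusted p = 0.176), and EXPA7 stood at -1.68 ± 0.67 and -1.50 ± 0.67 (adjusted p = 0.0672 and 0.321). The third root marker tested, PYK10, did not follow this pattern, and with it the list summed to 20583 and 23359 on the det2 arrays, 13309.5 and 14939 on the Col arrays and 11386 and 11399.7 on the Col_BL arrays. None of the 3 is at 0. The part of root tissue in the class was not tested.

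**Figure D3:**
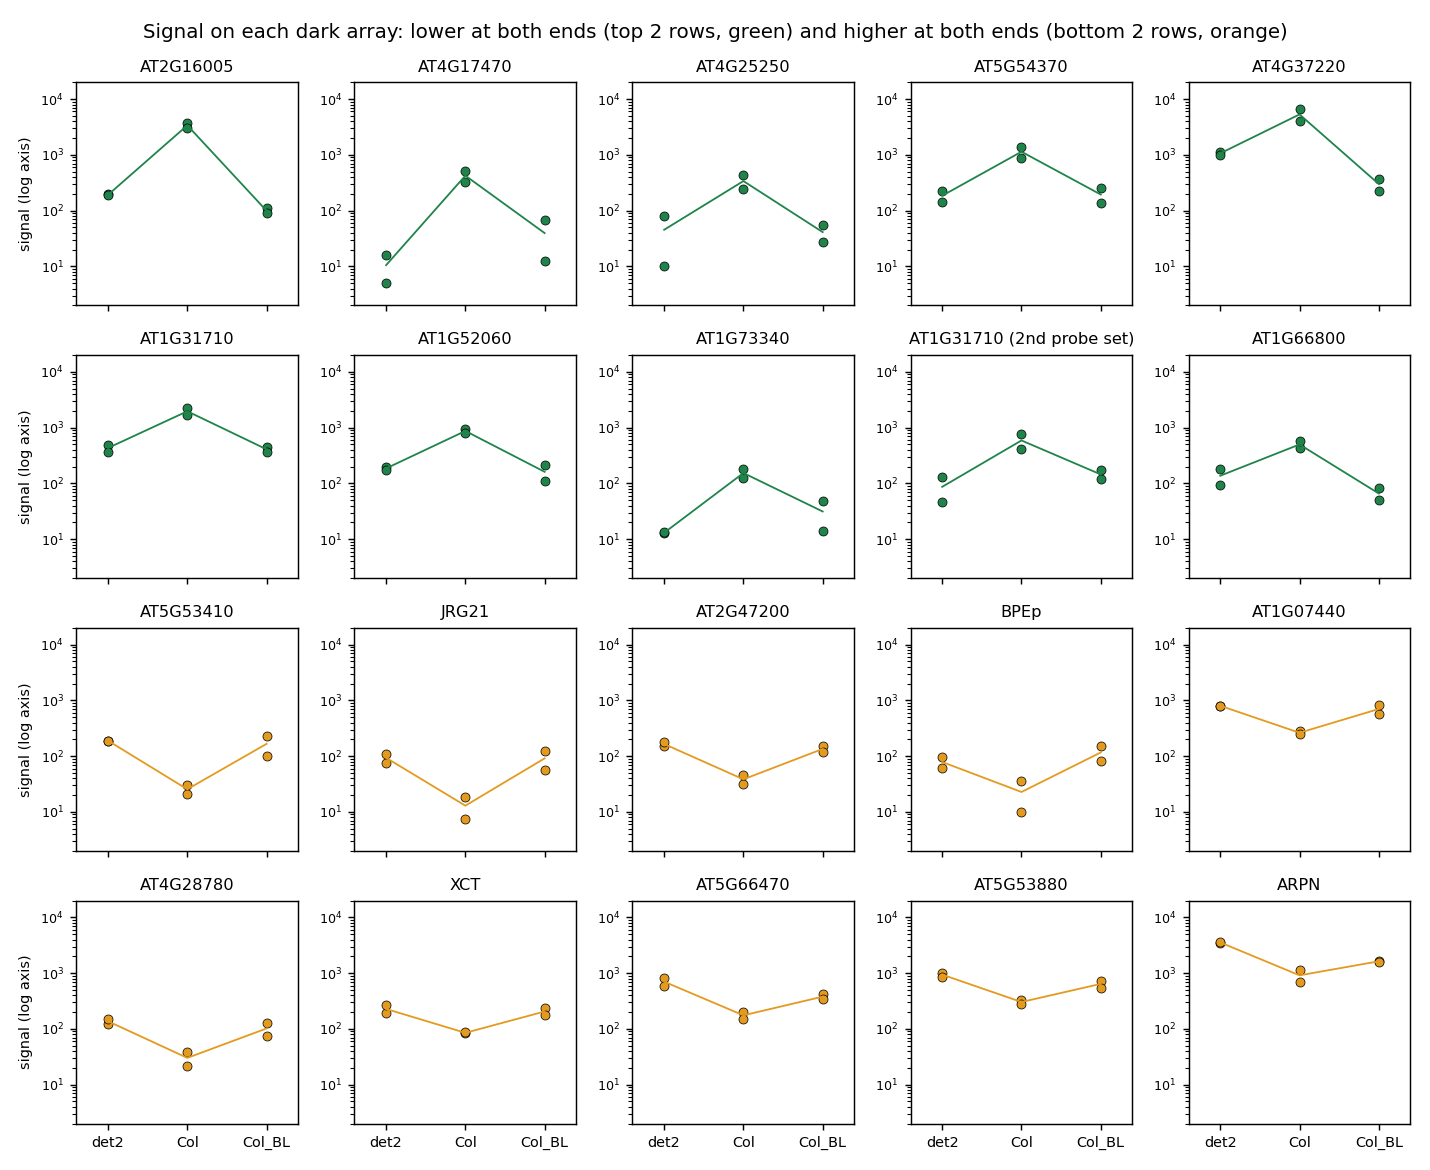
Signal on each of the 6 dark arrays (log axis) for 10 probe sets lower at both ends (green) and 10 higher at both ends (orange), from det2 through Col to Col_BL. Points are arrays and lines join level means. AT2G16005 forms a tall peak at Col, and AT5G53410 has its lowest signals there.

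Genes higher at both ends than in normal seedlings were fewer, 51 against 182 in the class lower at both ends. AT1G07440 had 793 and 806 on the det2 arrays, 279.98 and 246 on the Col arrays and 569 and 834 on the Col_BL arrays, and AT5G53880 had 1012 and 869.6 on the det2 arrays, 328 and 279 on the Col arrays and 738 and 546 on the Col_BL arrays. In both, the Col arrays were the lowest. AT1G07440 changed by 1.55 ± 0.27 in det2 and 1.34 ± 0.27 in Col_BL (limma, adjusted p = 0.00077 and 0.0158). ARPN (AT2G02850), the blue copper protein plantacyanin, had 3426 and 3676 on the det2 arrays, 706 and 1122 on the Col arrays and 1649 and 1612 on the Col_BL arrays. The det2 arrays were the highest and the Col arrays the lowest, and the changes were 1.98 ± 0.19 in det2 and 0.86 ± 0.19 in Col_BL.

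The class holds 4 other members with gene names. JRG21 (AT3G55970), which is induced by jasmonate, had 111 and 75.8 in det2, 7.4 and 18.5 in Col and 125 and 57.5 in Col_BL, and its Col mean lies under the constant of 16. BPEp (AT1G59640), a bHLH factor that limits petal cell expansion, had 96.1 and 61.2 in det2, 35.5 and 10.1 in Col and 153 and 80.4 in Col_BL. XCT (AT2G21150), a nuclear protein of clock timing, had 189 and 267 in det2, 83.4 and 86.8 in Col and 235 and 176 in Col_BL. In each the Col arrays lay below all others. AT4G13840, also called CER26, which acts in elongation of wax precursors, had 175 and 153 in det2, 123 and 85.7 in Col and 235 and 251 in Col_BL. Among the loci, AT5G66470 had 809.6 and 595 in det2, 199 and 151 in Col and 419 and 339.8 in Col_BL. AT5G53410 had 191 and 188 in det2, 29.9 and 21.1 in Col and 102 and 231 in Col_BL, AT2G47200 had 151 and 179 in det2, 31.2 and 45.7 in Col and 152 and 117 in Col_BL, and AT4G28780 had 121 and 153 in det2, 39.1 and 21.4 in Col and 129.6 and 74.3 in Col_BL.

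The 51 members had medians of 0.96 in det2 and 0.97 in Col_BL, and 14 were at least 2-fold higher at both ends. In 34 of them Col_BL and det2 differed by no more than 0.5 on the log2 scale. This class moved with single Col arrays: its count was 111 without array 1 of Col and 18 without array 2. It was 27 and 25 without array 1 or 2 of det2, and 13 and 52 without array 1 or 2 of Col_BL. The call held with each array left out in 3 members, and in 0 of the genes named here. AT2G47200 left without array 1 of Col or of Col_BL, AT4G28780, AT5G66470 and AT5G53880 without array 2 of Col or array 1 of Col_BL, and AT1G07440 without array 2 of Col or of Col_BL. AT5G53410 left without either Col array or array 2 of Col_BL, ARPN without array 1 of Col or either Col_BL array, and XCT without any 1 wild-type array. JRG21 left without any 1 array but array 2 of Col_BL, and BPEp and AT4G13840 without any 1 array but array 1 of Col.

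The same probe sets were then read after 2 h of light, Col_BR against Col. Those 4 arrays enter neither of the changes that define the classes, but they share the low-value filter and the estimate of the spread with them. Leaving out 1 of the 4 gave 92 or 106 rises. With the 6 dark arrays fitted alone there were 44 rises, 22 falls, 13 higher and 121 lower at both ends. Over all probe sets 756 passed (4.25%), of which 386 (2.17%) were higher and 370 (2.08%) lower with hormone there. Of the 86 ordered rises 48 were higher (55.8%), and of the 40 ordered falls 23 were lower (57.5%). Of the 51 higher at both ends 27 were higher (52.9%), and of the 182 lower at both ends 109 were lower (59.9%). In none of the 4 classes did a member pass in the opposite direction. Among hormone-responsive probe sets at large the shares were similar: 148 of all 272 higher with added hormone in darkness (54.4%) and 190 of all 336 lower (56.5%) passed the same way. Nothing in these shares is therefore called particular to the classes. The shares rested on single arrays, and without array 2 of Col_BR they were 34.8% for the rises, 16.7% for the falls, 29.1% for those higher and 37.9% for those lower at both ends. Without array 1 of Col after light they were 36.8%, 28.8%, 26.1% and 33.6%.

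Single genes show the same steps. AT1G53690 had signals of 447 and 597 in Col_BR, against 42.4 and 40.6 in Col after light, a change of 3.21 ± 0.35 (limma, adjusted p = 0.000301). SBTI1.1 had 1611 and 2279 in Col_BR, against 315 and 483 in Col, and changed by 2.25 ± 0.22 (adjusted p = 0.000133). Both genes were higher on each Col_BR array than on either Col array. AT5G57785 had 559 and 272 in Col_BR, against 3455 and 4868 in Col, and AT2G16005 had 118 and 91.5, against 2267 and 1553. The changes were -3.34 ± 0.39 and -3.98 ± 0.21. AT4G37220 had 202 and 147 in Col_BR, against 7333 and 2439 in Col, whose arrays were far apart. Among the members that did not pass after light were AT3G46270 (0.50 ± 0.33), AT5G45310 (-0.40 ± 0.21), XCT (0.15 ± 0.26) and AT4G17470 (-1.41 ± 0.46). The difference between the hormone effects in light and in darkness was tested for each probe set, and 0 of 17787 passed (limma), with 662 at an unadjusted p under 0.05.

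**Figure D4:**
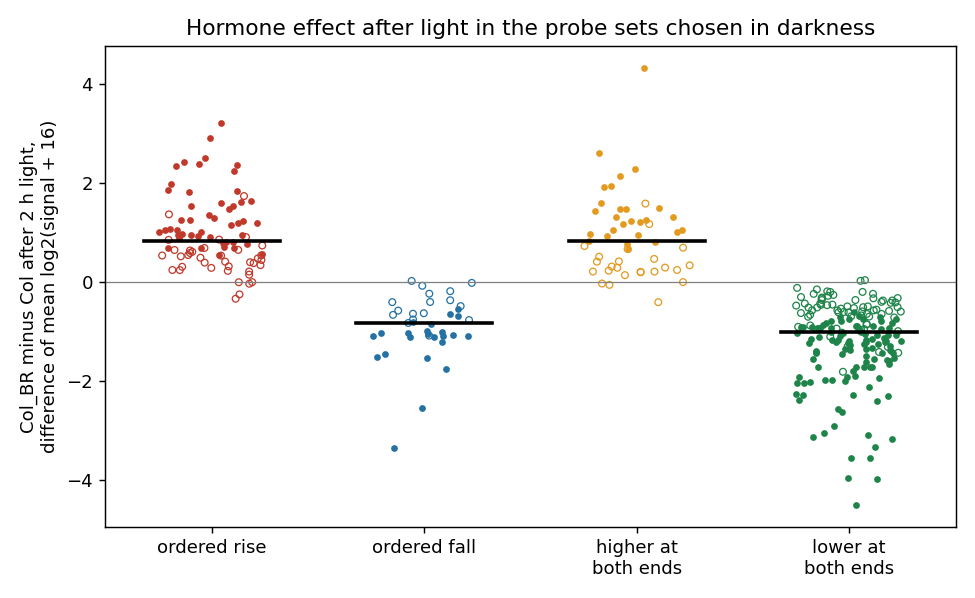
Change with added hormone after 2 h of light (Col_BR minus Col, difference of mean log2(signal + 16)) for every member of the 4 classes defined by the dark changes, with the spread estimated over all 14 arrays. Filled points pass and open points do not, bars are medians, and points are spread sideways at random. Medians are 0.84 for ordered rises, -0.83 for ordered falls, 0.83 for those higher and -0.997 for those lower at both ends.

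For deficiency the other contrast was det2 grown in light against Col after 2 h of light, in which genotype and light history cannot be told apart. There 4730 probe sets (26.6%) were higher and 3320 (18.7%) lower in det2. Of the 182 probe sets lower at both ends 121 were lower (66.5%) and 10 higher. Of all 336 lower with added hormone in darkness 187 were lower (55.7%) and 43 higher (12.8%). Of the 51 higher at both ends 33 were higher (64.7%) and 6 lower (11.8%). Of all 272 higher with added hormone in darkness 103 were higher (37.9%) and 76 lower (27.9%). The ordered classes held members of both directions. Of the 86 rises 33 were lower (38.4%) and 21 higher (24.4%) in light-grown det2. Of the 40 falls 15 were higher (37.5%) and 13 lower (32.5%). Prx37, for example, read 1883 and 1598 in light-grown det2, against 235 and 207 in Col after light, which is not the order seen in darkness.

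Some genes with textbook roles in elongation were ordered along the gradient without passing at the upper step, and some passed at neither step, so they are not in the classes. A wider rule, in which all 6 arrays are ordered and Col_BL against det2 passes, takes in 1128 rises (6.34% of all tested) and 721 falls (4.05%). Of the 8 xyloglucan endotransglucosylase genes tested, which cut and rejoin the hemicellulose of the wall, 5 were ordered rises by this rule and 6 were higher in Col_BL than in det2 (19.1% of all probe sets were). XTH18 (AT4G30280) had 366 and 272 on the det2 arrays, 1962 and 2501 on the Col arrays and 3856 and 4481 on the Col_BL arrays. XTH19 (AT4G30290) had 924 and 1057 on the det2 arrays, 2783 and 3482 on the Col arrays and 5464 and 7116 on the Col_BL arrays, and XTH20 (AT5G48070) had 25.998 and 112 on the det2 arrays, 299 and 532 on the Col arrays and 867 and 1119 on the Col_BL arrays. In all 3 no level overlapped another. XTH33 (AT1G10550) had 320.4 and 290.5 in det2, 664 and 924 in Col and 1457 and 2326 in Col_BL. Between Col_BL and det2 the differences were 3.65 ± 0.23 for XTH18, 2.64 ± 0.27 for XTH19, 3.77 ± 0.41 for XTH20 and 2.53 ± 0.55 for XTH33 (limma, adjusted p = 4.09e-07, 1.24e-05, 2.38e-05 and 0.00303). In det2 against Col 3 of the 8 were lower (17.9% of all probe sets were). In Col_BL against Col 0 of the 8 passed (limma, 4 at an unadjusted p under 0.05), and XTH18 was nearest at 0.90 ± 0.23 (adjusted p = 0.0522). XTH33 passed at neither step, with -1.32 ± 0.55 in det2 and 1.22 ± 0.55 in Col_BL (limma, adjusted p = 0.0766 and 0.321).

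Expansins, which loosen the wall at low pH, differed mainly at the lower step. Of 8 alpha expansins tested 5 were lower in det2 than in Col (17.9% of all probe sets were) and 0 passed in Col_BL against Col (limma, 2 at an unadjusted p under 0.05), where 3.42% of all did. EXPA9 (AT5G02260) had 1244 and 1199 on the det2 arrays, 3288 and 3829 on the Col arrays and 4506 and 5494 on the Col_BL arrays, and EXPA4 (AT2G39700) had 855 and 847 on the det2 arrays, 2086 and 1589 on the Col arrays and 2399 and 1969 on the Col_BL arrays. EXPA9 was ordered on all arrays, and in EXPA4 the Col and Col_BL arrays overlapped. EXPA8 (AT2G40610) differed from Col by -0.82 ± 0.24 in det2 and 0.09 ± 0.24 in Col_BL, and EXPA20 (AT4G38210) by -0.66 ± 0.25 and 0.23 ± 0.25. Both det2 calls were lost without array 2 of det2 or of Col, and that of EXPA20 also without array 1 of det2 or either Col_BL array. Of the 8 beta expansin and expansin-like genes 3 were lower in det2 and 2, EXLA1 and EXLB1, were higher in Col_BL than in Col (1.53% of all probe sets were). EXLA2 (AT4G38400) was an ordered rise by the wider rule, with 243 and 254 on the det2 arrays, 787 and 711 on the Col arrays and 830.4 and 1097 on the Col_BL arrays. EXLA1 (AT3G45970) had 782 and 724 in det2, 857 and 772 in Col and 1287 and 1376 in Col_BL, so only its upper step stood out, a call lost without array 2 of Col or either Col_BL array. EXPB1 (AT2G20750) and EXPB3 (AT4G28250) were lower in det2 by -1.56 ± 0.23 and -1.14 ± 0.19, and in Col_BL they stood at -0.70 ± 0.23 and -0.51 ± 0.19 relative to Col (adjusted p = 0.148 and 0.217).

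Wall synthesis genes followed the gradient in part. Of 25 tested 11 were lower in det2 than in Col (17.9% of all probe sets were), 0 passed in Col_BL against Col (limma, 4 at an unadjusted p under 0.05), 12 were higher in Col_BL than in det2 (19.1% of all) and 9 were ordered rises by the wider rule (6.34% of all). The xyloglucan backbone synthases CSLC04 (AT3G28180) and CSLC5 (AT4G31590) had 1263 and 1528 on the det2 arrays, 2579.5 and 2430.2 on the Col arrays and 3354 and 3766 on the Col_BL arrays, and 606 and 660.2 on the det2 arrays, 1074 and 1028 on the Col arrays and 1418 and 1496 on the Col_BL arrays. In both the arrays were ordered by level. TBL41 (AT3G14850), of the family of wall acetyltransferases, had 152 and 135 in det2, 336 and 561 in Col and 729 and 1825 in Col_BL, and TBL19 (AT5G15900) 32.7 and 11.3 in det2, 97.9 and 71.995 in Col and 65.3 and 90.2 in Col_BL. Of 7 tubulin genes, which build the microtubules that guide cellulose, 1 was lower and 1 higher in det2. Over all probe sets the shares were 17.9% and 19.2%, so this is not read as a result about tubulins. TUB9 (AT4G20890) changed by -0.62 ± 0.12 and TUB6 (AT5G12250) by 0.56 ± 0.13. TUB1 (AT1G75780) had 2498 and 2236 in det2, 2886 and 2613 in Col and 3892 and 4042 in Col_BL, an ordered rise by the wider rule. In all 2 of the 7 were (6.34% of all probe sets). Of 152 listed symbols of class III peroxidases 6 matched a gene named here, and 5 were tested. Loci without a gene name here could not be matched, so any peroxidases among them, in the classes or not, are not counted. Of the 5, 3 were lower in det2 (17.9% of all probe sets were) and 1, Prx37, was higher in Col_BL (1.53%). AT5G66390, peroxidase 72 of lignin formation, had 516 and 502 on the det2 arrays, 3211 and 3117 on the Col arrays and 2275 and 2676 on the Col_BL arrays. The det2 arrays were the lowest, and both Col_BL arrays lay below both Col arrays. AT5G64120, peroxidase 71, had 964 and 939.8 in det2, 2365 and 3733 in Col and 1755 and 2899 in Col_BL, and AT2G41480, peroxidase 25, had 242 and 224 in det2, 232 and 266 in Col and 461 and 391 in Col_BL.

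**Figure D5:**
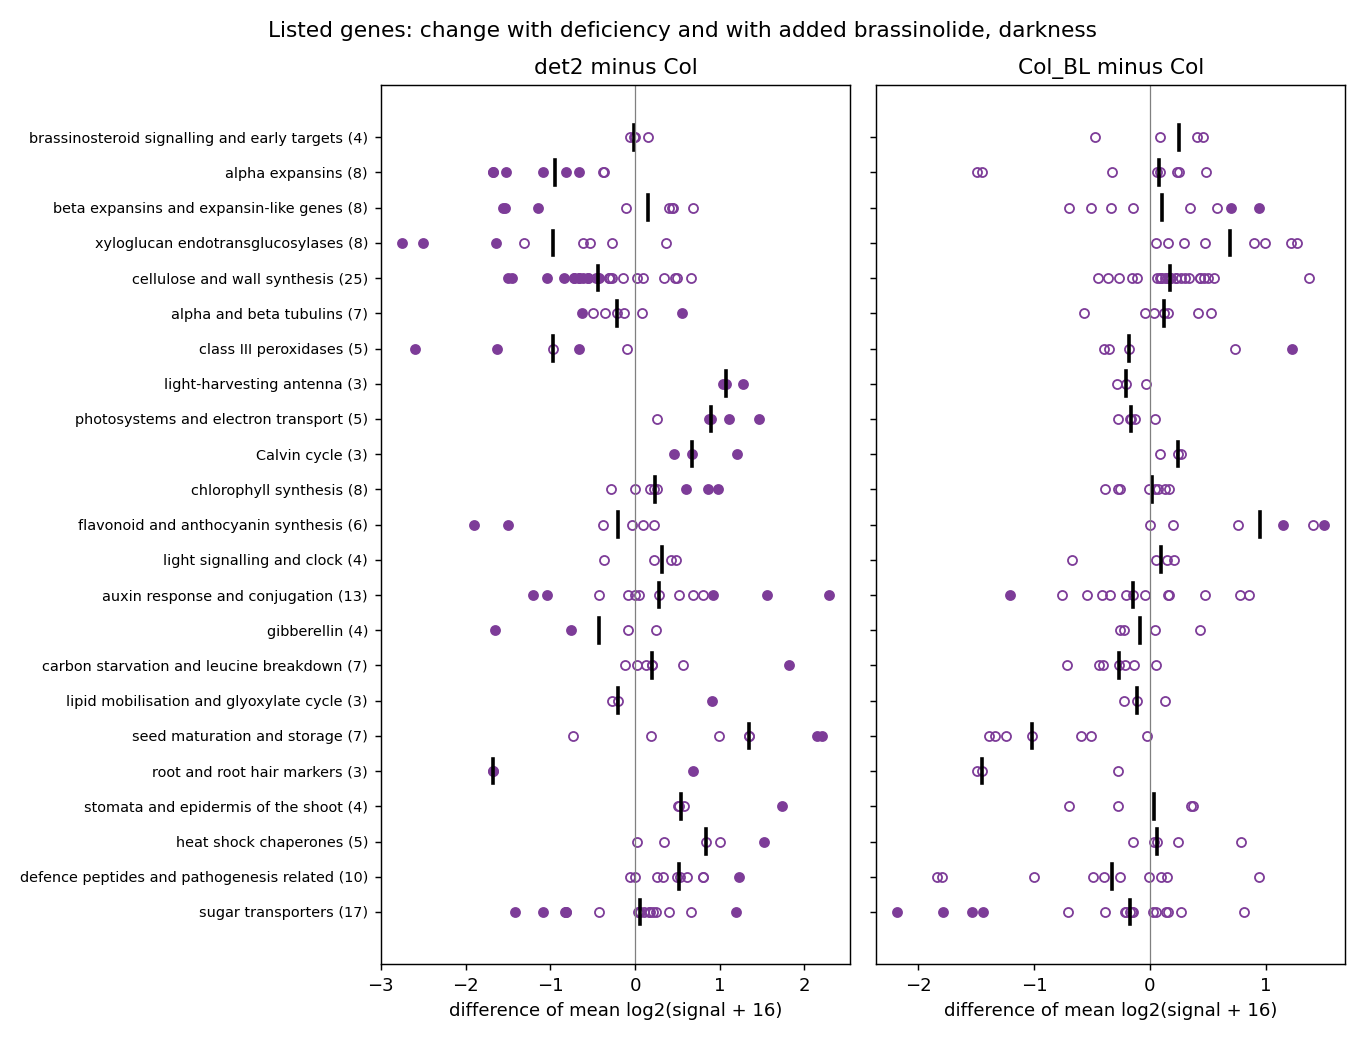
Changes of listed genes, det2 minus Col (left) and Col_BL minus Col (right), as differences of mean log2(signal + 16), for lists with at least 3 tested members (number in brackets). Filled points pass and open points do not, and black bars are medians. The alpha expansin median lies at -0.95 in det2 and the antenna median at 1.07, and few listed genes pass in Col_BL.

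The photosynthesis genes that could be tested ran the other way at the lower step and did not pass at the upper one. They are few: 3 from 27 listed antenna symbols, 5 from 47 of photosystems and electron transport and 3 from 23 of the Calvin cycle. All 3 antenna genes tested, which encode the CP29 protein of photosystem II, were higher in det2 than in Col (19.2% of all probe sets were), and 0 passed in Col_BL against Col (limma, 0 at an unadjusted p under 0.05). LHCB4.2 (AT3G08940) had 9036 and 8322 on the det2 arrays, 4015 and 3187 on the Col arrays and 3467 and 3506 on the Col_BL arrays. The det2 arrays were clear of the rest, and the Col and Col_BL arrays overlapped. LHCB4.3 (AT2G40100) had 793 and 604 in det2, 332 and 311 in Col and 279 and 242 in Col_BL, an ordered fall by the wider rule, and LHCB4.1 (AT5G01530) had 12640.5 and 11516 in det2, 6942 and 4976 in Col and 5461 and 4731 in Col_BL. Of 5 photosystem and electron transport genes 4 were higher in det2, against the same 19.2%, and 0 passed in Col_BL (limma, again 0 unadjusted). PSAE-1 (AT4G28750) of photosystem I had 8357 and 8239 on the det2 arrays, 3175 and 2833 on the Col arrays and 2464 and 2894 on the Col_BL arrays. PSAN, PSBY and PSBW were ordered falls by the wider rule, with Col_BL against Col differences of -0.28 ± 0.15, -0.17 ± 0.12 and -0.13 ± 0.15 (adjusted p = 0.423, 0.573 and 0.798).

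The 3 Calvin cycle genes tested were higher in det2 as well (19.2% of all probe sets were), and 0 passed in Col_BL (limma, 0 at an unadjusted p under 0.05). RCA (AT2G39730), rubisco activase, had 10071 and 9805 on the det2 arrays, 5216 and 3573 on the Col arrays and 4612 and 4573 on the Col_BL arrays. Its Col arrays were further apart than the difference between Col and Col_BL. PRK and SBPASE were higher in det2 by 0.67 ± 0.21 and 0.46 ± 0.15, calls that were lost without array 2 of Col or either det2 array. Of 8 chlorophyll synthesis genes 3 were higher in det2, against 19.2% of all, and 0 passed in Col_BL (limma, 1 at an unadjusted p under 0.05). CHLM (AT4G25080), the magnesium-protoporphyrin methyltransferase, had 3978 and 4588 on the det2 arrays, 2486 and 1885 on the Col arrays and 1515 and 1795 on the Col_BL arrays, an ordered fall by the wider rule, as was HEME1 (AT3G14930). HEMB1 (AT1G69740) changed by 0.86 ± 0.18 in det2. Genes encoded in the plastid genome were higher in det2 too: 66 of 69 tested were higher in det2, against 19.2% of all, with a median of 2.86, and 0 passed in Col_BL (limma, 4 at an unadjusted p under 0.05), with a median of 0.29. None of them is in the classes.

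Flavonoid genes showed an ordered rise in part. Of 6 tested 2 were lower in det2 (17.9% of all probe sets were), 2 were higher in Col_BL than in Col (1.53%) and 2 were ordered rises by the wider rule (6.34%). UF3GT (AT5G54060, UGT79B1), which adds a sugar to anthocyanins, had 24.4 and 22.3 on the det2 arrays, 118 and 145 on the Col arrays and 502 and 279 on the Col_BL arrays. CHIL (AT5G05270), the chalcone isomerase-like protein, had 69.994 and 31.1 on the det2 arrays, 161 and 168 on the Col arrays and 293 and 287 on the Col_BL arrays. Both were ordered on all arrays and passed at the lower step, by -1.90 ± 0.38 and -1.50 ± 0.30 (limma, adjusted p = 0.00202 and 0.002). DFR (AT5G42800), dihydroflavonol reductase, had 158 and 86.6 in det2, 132 and 185 in Col and 527 and 427 in Col_BL, and the glucosyltransferase UGT78D2 (AT5G17050) had 268 and 160.2 in det2, 172 and 179 in Col and 498 and 335 in Col_BL. In these det2 and Col overlapped and Col_BL lay above both. Their calls in Col_BL were lost without array 1 of Col_BL or either Col array, and that of DFR also without array 2 of Col_BL.

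Of 13 auxin genes 3 were higher and 2 lower in det2, near the shares of all probe sets (19.2% and 17.9%). In Col_BL 1 of them, LBD16 (-1.21 ± 0.19), was lower than in Col (1.89% of all probe sets were). GH3.3 (AT2G23170), which conjugates auxin to amino acids, had 1879 and 1677 on the det2 arrays, 393 and 313 on the Col arrays and 518 and 469 on the Col_BL arrays. The det2 arrays were the highest and the Col arrays the lowest, though the Col_BL change of 0.47 ± 0.19 did not pass (limma, adjusted p = 0.246). IAA29 (AT4G32280), an auxin response repressor, had 1054 and 1012 on the det2 arrays, 382 and 304 on the Col arrays and 275 and 255 on the Col_BL arrays, and YUC2 (AT4G13260), of auxin synthesis, had 247 and 204 in det2, 165 and 141 in Col and 115 and 85.7 in Col_BL. Both were ordered falls by the wider rule. HAT2 (AT5G47370) was lower in det2 by -1.04 ± 0.20. Of 4 gibberellin genes 2 were lower in det2 (17.9% of all probe sets were), both receptors: GID1B (AT3G63010) had 208 and 174 on the det2 arrays, 669.9 and 596 on the Col arrays and 1017 and 726 on the Col_BL arrays, and GID1A (AT3G05120) had 568 and 616 in det2, 999 and 1015 in Col and 879.6 and 796 in Col_BL. GID1B was ordered, and GID1A was highest in Col.

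Of 56 listed symbols of brassinosteroid signalling and early target genes 5 matched a gene named here, and 4 were tested. Of these 4, 0 passed in det2 against Col or in Col_BL against Col (limma), and 0 had an unadjusted p under 0.05 in either. Most of the listed genes could not be read, so nothing is said of them as a group. EXO (AT4G08950), a gene of cell expansion that brassinosteroids induce, had 5048 and 5605 on the det2 arrays, 5637 and 5404 on the Col arrays and 7319 and 7899.9 on the Col_BL arrays. The Col_BL arrays were the highest, with a change of 0.46 ± 0.34 (adjusted p = 0.624). BRL1 (AT1G55610), a receptor of the BRI1 family, had 105 and 125 in det2, 115 and 89.6 in Col and 86.3 and 54.5 in Col_BL. No brassinosteroid synthesis gene has a named probe set here, so feedback on synthesis was not analysed.

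Beyond the 3 SWEET genes above, 17 sugar transporter genes were tested in all, of which 1 was higher and 5 lower in det2 (19.2% and 17.9% of all probe sets were), and 4 were lower in Col_BL than in Col (1.89%). SWEET11 (AT3G48740), a sucrose exporter, had 12988 and 15976 on the det2 arrays, 9753 and 8432 on the Col arrays and 2831 and 2417 on the Col_BL arrays. It was an ordered fall by the wider rule, with its drop in Col_BL, -1.79 ± 0.26 (limma, adjusted p = 0.00264). SWEET17 (AT4G15920), a vacuolar fructose transporter, was lower in det2 by -1.09 ± 0.21 and stood at -0.38 ± 0.21 in Col_BL (adjusted p = 0.455).

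Among markers of tissue and state the shares higher in det2 lay near or under the 19.2% of all probe sets, with some exceptions. These were 2 of 7 seed genes, 1 of 3 genes of lipid mobilisation, 1 of 4 stomatal and epidermal markers and 1 of 3 root markers, PYK10. They are read as values of single genes and not as a result about these lists. M17 (AT2G41260), a late embryogenesis gene, had 9287 and 9110.01 on the det2 arrays, 1352 and 3158 on the Col arrays and 583 and 1123 on the Col_BL arrays, and AtLEA4-1 (AT1G32560) had 1147 and 1049 in det2, 148 and 338 in Col and 48.1 and 203 in Col_BL. The det2 arrays were the highest, and array 2 of Col and of Col_BL lay above array 1 in both genes. The seed genes PAP85 and LEA did not pass in det2 against Col (1.34 ± 0.59 and 0.99 ± 0.61) and were lower in Col_BL than in det2 (-2.73 ± 0.59 and -2.23 ± 0.61). STOMAGEN (AT4G12970), a peptide that promotes stomata, had 1645 and 1608 in det2, 364 and 629.95 in Col and 279 and 549 in Col_BL. The 4 stomatal and epidermal markers summed to 2174 and 1932 on the det2 arrays, 642 and 910.03 on the Col arrays and 493 and 812 on the Col_BL arrays, with 1 of 4 higher in det2. MCCB (AT4G34030), of leucine breakdown, had 5891 and 6476 in det2, 2733 and 1104 in Col and 1746 and 937 in Col_BL, with the 2 Col arrays far apart. ICL (AT3G21720), isocitrate lyase of the glyoxylate cycle, had 13703 and 13504 in det2, 6809 and 7633 in Col and 6674 and 6668 in Col_BL, a det2 call that was lost under quantile normalization. Of 5 heat shock genes 1, AT5G48570 (the immunophilin ROF2), was higher in det2 (1.53 ± 0.35), and of 10 defence peptide genes 1, PDF1.2 (1.22 ± 0.36), was, while 0 of either list passed in Col_BL (limma, 1 and 3 at an unadjusted p under 0.05). PDF2.1 had 1563 and 1463 in det2, 453 and 1633 in Col and 108 and 471 in Col_BL, so the spread between Col arrays spanned the det2 values. Of 4 light signalling and clock genes 0 passed at either step (limma, 0 in det2 and 1 in Col_BL at an unadjusted p under 0.05), and HYH (AT3G17609), a factor close to HY5, was lower in Col_BL than in det2 (-1.15 ± 0.27).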

How the data were processed

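The values are linear intensity values of a 1-colour array with 22810 probe sets, deposited by the authors as 1 table. Per the submitters' processing notes MAS5 and limma were used by the authors; their versions and settings are not given in the sources used here. On each array the mean was 500 once the outer 2% at either end were trimmed, so the authors had already scaled the deposited intensity values. The array number, 2 per level, limits the precision.

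Groups came from sample titles. The 64 control probe sets and 4959 with a mean under 50 over all 14 arrays were left out, and 17787 were tested as log2(signal + 16), which understates changes of low genes. A model with 1 mean for each of 7 groups and a trend of variance with level was fitted over all 14 arrays (limma 3.58.1, R 4.3.3). Benjamini-Hochberg adjustment ran over all tested probe sets of each comparison, with a threshold of 0.05 and no minimum fold.

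The classes, gene lists and tests were chosen with earlier results of these data known, so they support nothing independently. Genes named are, in each class, up to 10 probe sets with 1 gene and the largest weaker change, and in each of the lists with at least 3 tested members up to 4 passing members with the largest Col_BL against det2 change. Other class members with a gene symbol or name were added after their values were seen. The platform annotation lists 14016 probe sets, 13513 of them with 1 gene and 503 with several, while 8794 have no name here. RefSeq (TAIR10.1) gave symbols and neighbours for the 13436 single-gene probe sets that matched it. A gene with several probe sets is represented in the lists by the one with the highest mean. In every list fewer genes were tested than symbols listed, so no list is a survey of its family. For alpha expansins 8 genes were tested from 52 symbols, for xyloglucan endotransglucosylases 8 from 44 and for auxin 13 from 181. Figures were drawn with matplotlib 3.10.9.

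Alternatives changed the constant, the filter, the normalization, the variance model, the arrays in the fit, the call rule, the minimum fold and the replicate block, and left out each array in turn. The replicate numbers were checked for pairing through the correlation of deviations from level means, which was 0.01 between det2 and Col, 0.00 between det2 and Col_BL and 0.43 between Col_BL and Col. The labels do not say that arrays of the same number belong together, and the numbers were read as names. Any effect shared by Col and Col_BL arrays of the same number was left in the spread.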

Additional observations from a re-analysis of the deposited data

How the results depend on the processing

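The counts of all 4 comparisons and 4 classes stayed within 1.5 times under a constant of 1 or 64, another filter and quantile normalization. With only the 6 dark arrays in the fit, 329 passed for Col_BL against Col. The classes then held 44 rises, 22 falls, 13 higher and 121 lower at both ends. Hormone after light was fitted beside this on all wild-type arrays, dark and after light, and 214 passed. The shares passing after light were 31.8% of rises, 18.18% of falls and 39.7% of those lower at both ends. Both fits have fewer arrays to estimate the spread, and both include the dark wild-type arrays. A 2-fold minimum left 3117 for det2 against Col, 375 for Col_BL against Col, 3322 for Col_BL against det2, 443 after light, and 27, 13, 14 and 99 in the classes. Without the variance trend there were 50 rises and 30 higher at both ends. The wider rule for order gave 1128 rises and 721 falls, and an adjusted p of 0.01 left 7 higher and 70 lower at both ends. A replicate block was also fitted, although the numbers were not read as pairing the levels. With it 791 passed for Col_BL against Col. The classes then held 111 rises, 64 falls, 71 higher and 235 lower at both ends. No count but that of the falls moved by 1.5 times. In a split chosen after seeing the data, det2 was set against 1 Col array and Col_BL against the other. It gave 45 rises either way, 105 or 77 lower at both ends, and with array 2 of Col for det2 13 higher at both ends. The cause of these shifts was not tested.

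With 1 array left out at a time, det2 against Col gave 4658 to 6418, Col_BL against Col 184 to 526, Col_BL against det2 4830 to 7017 and hormone after light 299 to 965. With 1 dark array left out the classes held 22 to 54 rises, 18 to 32 falls, 13 to 111 higher and 63 to 136 lower at both ends, and with 1 array after light left out 92 or 106 rises, 48 to 59 falls, 55 or 69 higher and 190 or 220 lower. Shares passing after light were 34.8% to 86.4% of rises, 16.7% to 75.0% of falls, 23.4% to 77.8% of those higher and 33.6% to 74.6% of those lower at both ends. Each change of a named gene was counted again for every array left out. By that count 1186 kept their call and 266 lost it, so these are not numbers of separate changes. PYK10 in det2 against Col turned from 0.69 to -0.31 under quantile normalization, the only reversal among named genes under the alternatives run. Signals under the constant of 16 limit what can be said of low genes.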

Other observations

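Of the class members with 1 gene, 8 pairs are next to each other in the genome by RefSeq order. The share of such pairs among all tested genes is not given here, and the class lower at both ends is the largest of the 4. The pairs are therefore listed as single cases. In 4 pairs both genes fell in the class lower at both ends: AT1G52060 with AT1G52070, AT2G39040 with EULS3, AT4G11190 with AT4G11210, and AT5G38020 with AT5G38030. In the other 4 pairs the neighbours differed in class. GSTU28 was lower at both ends, with changes of -0.98 in det2 and -1.73 in Col_BL, and its neighbour AT1G53690 changed by -1.24 and 2.76. AT2G47540 changed by -1.44 and -1.90, and AT2G47550 by -1.14 and 1.11. In AT5G23840 the changes were -1.05 and -1.19, and in AT5G23850 they were 0.85 and 0.97. AT4G23670 was an ordered fall (1.03 and -0.63), and AT4G23680 was higher at both ends (1.24 and 0.78). Cross-hybridisation between neighbouring gene copies was not tested.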
